A study of Mus musculus with 18 samples.

Results

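The sites described here are 255 autosomal meiotic recombination hotspots that took a larger share of the DMC1 signal in mice with a single intact Prdm9 copy than in C57BL/6J (B6) mice. They were chosen from the 8744 autosomal sites of the authors' list of 9132 DMC1 sites common to spermatocytes of B6, Ewsr1 CKO and Prdm9 heterozygous (Prdm9 het) mice. For each site the DMC1 value in Prdm9 het was divided by that in B6, and a site was taken where this ratio was at least 2 times 0.186, its median over all autosomal sites. Dividing by the median takes out the difference in overall level between the columns, so "favoured" refers to a share of signal and not to an amount. The ratio chose the sites, and it is therefore given below only as a description.

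The series holds 18 ChIP-seq samples in 12 groups, all from spermatocytes of mice aged 14 days. The groups used were DMC1 in B6 (strain C57BL/6J), DMC1 in Ewsr1 CKO (labelled Ewsr1-CKO with Stra8-iCre, a Cre recombinase driven in germ cells that enter meiosis), DMC1 in Prdm9 het (genotype Prdm9+/-, with no background strain in the labels), and the histone marks H3K4me3 and H3K36me3 in Ewsr1 CKO mice of the same label. Each is a group of 2 samples, but the deposited tables hold 1 value per group and site, in RPM (reads scaled to sequencing depth by the authors). No spread between animals can be given for any value, no difference was tested, and each ratio describes a pair of columns. As the labels give no strain for Prdm9 het, Prdm9 copy number and strain background cannot be told apart in its ratio to B6.

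Meiotic recombination starts from programmed DNA double strand breaks. PRDM9 binds DNA through its zinc fingers and places H3K4me3 and H3K36me3 on nearby nucleosomes, and in the mouse this marks where most breaks form. DMC1 is the meiotic recombinase that coats the single-stranded DNA of a resected break, so DMC1 ChIP-seq reads both how often a site breaks and how long the break stays unrepaired. EWSR1 is an RNA-binding protein, and the loss of 1 Prdm9 copy lowers the dose of PRDM9.

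The sequences of the hotspots themselves were not used here, but 9 of the 255 favoured sites contained a whole promoter window of an annotated gene (from 250 bases before to 50 bases after its start; RefSeq, GRCm38.p6). For 3 of these the window is printed 5′ to 3′ in the direction of the gene, with each CpG dinucleotide in capitals, since CpG-rich promoters carry H3K4me3 in most tissues whether or not PRDM9 acts there. They were chosen after their values were seen: Gm34557 and Dnaaf2 had the highest H3K4me3 of the 9, and Il23r the lowest.
Gm34557 (chr13:53935234-53935533, minus strand): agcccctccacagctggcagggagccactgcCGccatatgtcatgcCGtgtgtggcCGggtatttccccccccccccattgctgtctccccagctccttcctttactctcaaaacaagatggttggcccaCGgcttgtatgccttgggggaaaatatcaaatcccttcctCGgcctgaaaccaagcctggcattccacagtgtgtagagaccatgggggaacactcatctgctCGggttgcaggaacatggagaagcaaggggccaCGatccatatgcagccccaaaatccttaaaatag
Dnaaf2 (chr12:69198380-69198679, minus strand): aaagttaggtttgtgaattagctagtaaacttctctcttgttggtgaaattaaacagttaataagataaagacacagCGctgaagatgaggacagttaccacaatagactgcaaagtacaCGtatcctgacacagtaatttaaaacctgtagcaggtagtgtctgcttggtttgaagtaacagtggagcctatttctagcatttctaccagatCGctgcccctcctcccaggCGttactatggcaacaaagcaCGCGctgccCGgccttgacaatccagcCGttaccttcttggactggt
Il23r (chr6:67491806-67492105, minus strand): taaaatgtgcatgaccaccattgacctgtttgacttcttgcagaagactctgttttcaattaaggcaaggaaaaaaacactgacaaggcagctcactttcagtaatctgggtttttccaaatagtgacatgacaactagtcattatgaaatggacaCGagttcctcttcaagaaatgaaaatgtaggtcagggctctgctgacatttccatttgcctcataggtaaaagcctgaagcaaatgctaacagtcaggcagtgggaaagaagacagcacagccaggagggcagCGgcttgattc

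None of these windows was rich in CpG. That of Gm34557, a predicted gene, held 7 CpG, that of Dnaaf2, which encodes an assembly factor for ciliary dynein arms, held 8, and that of Il23r, which encodes a subunit of the interleukin-23 receptor, held 2. Over the 9 windows the number ranged from 1 to 8 with a median of 5, none held 10 or more, and the median GC content was 44.3%. Of all 31396 autosomal promoter windows 44.0% held 10 or more CpG, with a median of 7 CpG and of 53% GC. The 120 windows in the other autosomal DMC1 sites were like those in the favoured ones, with a median of 4 CpG, and 6.67% of them held 10 or more. The H3K4me3 values of the 3 sites spanned a wide range. H3K4me3 in Ewsr1 CKO was 5.12 RPM at the Gm34557 site, 4.66 RPM at the Dnaaf2 site and 0.451 RPM at the Il23r site, and none of the 3 overlapped an interval of the deposited H3K4me3 list. At the Gm34557 site DMC1 was 19.9 RPM in B6, and Prdm9 het had 19.5 RPM and Ewsr1 CKO 18.2 RPM.

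The 255 favoured sites were 2.92% of the autosomal sites, and most of them lay close to the threshold. Their ratio ranged from 2.005 to 10.7 times the median, with a median of 2.28 and an interquartile range of 2.10 to 2.79, and 44 sites reached 3 times. The 3 sites just inside the threshold were chr12:84895636-84898128 (2.006 times), chr11:12606333-12608282 (2.005 times) and chr9:91035711-91038755 (2.005 times). The 3 just outside had 1.997, 1.995 and 1.995 times and lay on chromosomes 13, 6 and 18. The list thus cuts through a continuous range. The B6 column was made of whole multiples of 0.129 RPM at 100% of the sites (tolerance 0.01 of a step). If 1 step stood for 1 read, the favoured sites held from 63 to 1879 B6 reads, with a median of 261. On that reading, 110 of the 255 would fall below the threshold with B6 at the upper end of its exact 95% Poisson interval, which covers B6 read counting only. The depth of the Prdm9 het column is unknown.

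The highest ratio was at chr14:68389775-68391901, outside annotated genes, where Prdm9 het held 73.6 RPM of DMC1, B6 held 36.9 RPM and Ewsr1 CKO held 54.5 RPM. It was followed by a site in Rictor, which encodes a subunit of the kinase complex mTORC2, at chr15:6734738-6737336 (42.8, 29.5 and 37.1 RPM in the same order). At the next site, in Supt3 (a subunit of a transcriptional coactivator complex) at chr17:44998983-45001157, the values were 33.0, 23.1 and 31.7 RPM. At all 3 sites Prdm9 het held the highest value, although its autosomal median (9.02 RPM) was the lowest of the 3 columns (B6 47.3 RPM, Ewsr1 CKO 56.0 RPM). The next were a site in Bmp5, a bone morphogenetic protein gene, at chr9:75885005-75887808 (40.7, 31.9 and 32.2 RPM) and a site in Garnl3 at chr2:33054183-33056319 (16.7, 13.5 and 38.5 RPM). Of these 5, only the Garnl3 site had an H3K4me3 value above the autosomal upper quartile of 1.39 RPM (3.00 RPM). The other 4 had 0.297 to 0.772 RPM, below the autosomal median of 0.879 RPM. Sites that were not favoured had medians of 0.706 RPM in the B6 quintile of the Rictor, Supt3 and Bmp5 sites. In that of the chromosome 14 site the median was 0.832 RPM. The Rictor site, with 0.772 RPM, thus lay above the median of its quintile, and the rest lay below theirs.

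Favoured sites were mostly of weak to middle strength in B6. B6 is the divisor in the rule, so this is a description, and its cause was not tested. The B6 DMC1 of favoured sites had a median of 33.6 RPM (interquartile range 19.4 to 59.3 RPM), against 47.3 RPM (24.6 to 98.2 RPM) over all autosomal sites. The 487 sites at or below 0.5 times the median ratio were also weak in B6, with a median of 26.4 RPM (15.3 to 59.8 RPM). When autosomal sites were ranked into deciles by B6 signal, 3.89% of the weakest decile and 4.92% of the next were favoured. Over deciles 3 to 8 the share moved between 2.17% and 4.0%. It was 1.03% in decile 9 and 0.229% in the strongest, where 2 of 875 sites qualified. The strongest favoured site was at chr12:104258338-104261147, with 241.6 RPM in B6 against 90.5 RPM in Prdm9 het. The next 4 had 195 against 81.1 RPM (chr16:21352202-21354769), 185 against 78.9 RPM (chr17:47445475-47448405), 176 against 77.1 RPM (chr16:54098665-54101488), and 160.5 against 65.8 RPM (chr2:119493062-119496047). Their H3K4me3 values were 4.46, 5.20, 3.32, 2.26 and 4.999 RPM in this order, all above the autosomal upper quartile.

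**Figure D1:**
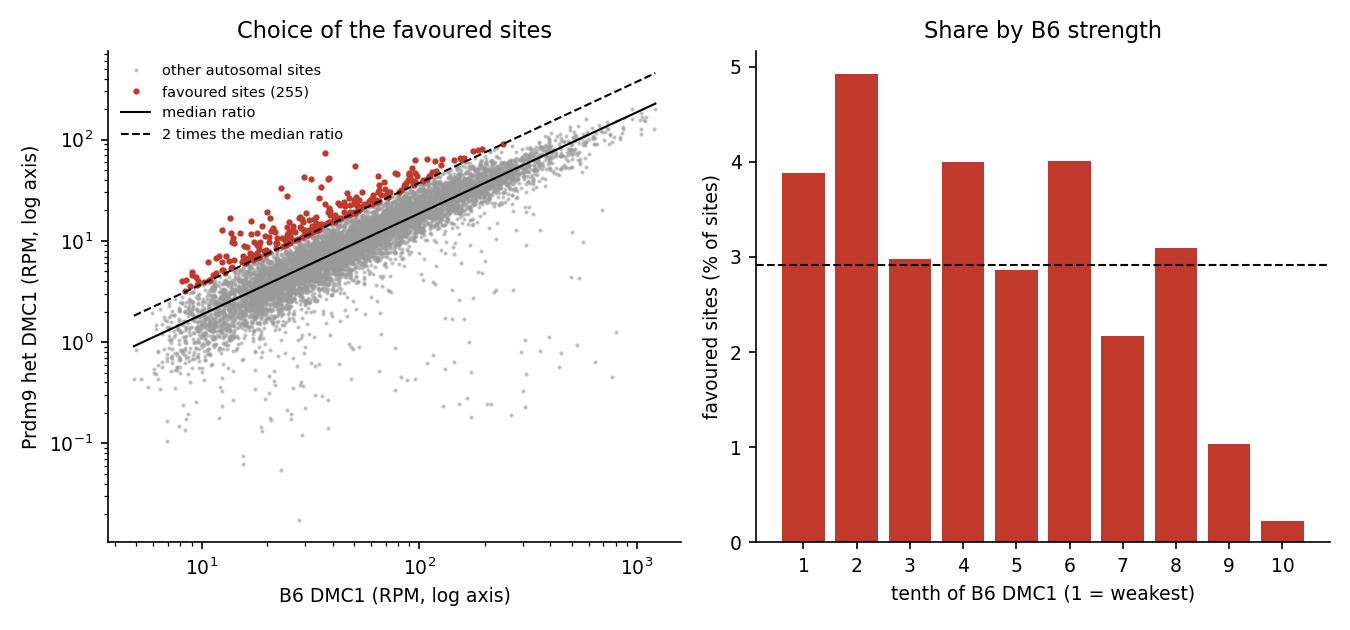
The left plot shows Prdm9 het against B6 DMC1 at each autosomal site (RPM, log axes; sites at 0 in Prdm9 het are not drawn), with the 255 favoured sites in red above the dashed line at 2 times the median ratio. The right plot shows the percentage of sites in each decile of B6 signal that were favoured, from 3.89% in the weakest to 0.229% in the strongest decile, and the dashed line marks the 2.92% over all deciles.

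Since strength in B6 went with most readouts, the favoured sites were compared with the other 8489 autosomal sites weighted to have the same spread over 20 equal strata of B6 signal, called matched sites below. After this weighting both sets had a median B6 value of 33.6 RPM. H3K4me3 was not used to choose the sites, and it was read in Ewsr1 CKO, a genotype outside the rule. The comparison is not free of the rule, though. At equal B6 the rule takes sites with more Prdm9 het DMC1 (medians 16.2 RPM at favoured and 6.15 RPM at matched sites). H3K4me3 also rose with DMC1 strength in B6, from a median of 0.564 to 1.41 RPM over quintiles of the other sites. With matching on Prdm9 het DMC1, the log2 ratio of H3K4me3 medians was 0.66, against 1.15 with matching on B6.

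H3K4me3 was higher at favoured sites than at other sites of the same B6 strength. Its median in Ewsr1 CKO was 1.67 RPM (interquartile range 0.925 to 2.66 RPM) at the favoured sites and 0.751 RPM (0.513 to 1.15 RPM) at the matched sites, a ratio of medians of 2.22. Of the 255 sites, 212 (83.1%) lay above the median of the other sites of their stratum, against 50.9% of all autosomal sites. The autosomal upper quartile of H3K4me3, reached by 25% of all sites, was reached by 146 of the favoured sites, 57.3% (Wilson 95% interval over sites 51.1 to 63.2%), and 16.8% of the matched sites. At the opposite end, 29 favoured sites (11.4%) and 31.5% of the matched sites were below the lower quartile of 0.573 RPM, as were 25% of all autosomal sites. The interquartile ranges overlapped, so the difference is one of the distributions and does not hold at each site. The median width was 2433 bp at favoured and 2411 bp at matched sites, and per kb of site the H3K4me3 medians were 0.675 and 0.324 RPM.

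The excess of H3K4me3 was present in each quintile of B6 strength. In the weakest quintile (B6 from 4.89 to 21.3 RPM) the medians were 1.11 RPM at 77 favoured sites and 0.564 RPM at the others, a ratio of 1.96. In the middle quintile they were 1.83 RPM at 60 sites and 0.832 RPM, a ratio of 2.20. In the strongest quintile only 11 sites were favoured, with medians of 3.32 and 1.41 RPM. The interquartile ranges of favoured and other sites overlapped in 4 of the quintiles (0.605 to 2.02 and 0.391 to 0.818 RPM in the weakest). In quintile 4 they did not (1.66 to 2.94 and 0.713 to 1.57 RPM).

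H3K4me3 went up with the ratio over the whole list and not only past the threshold. Sites under 0.5 times the median ratio had a median of 0.639 RPM, below the 0.759 RPM of their own matched sites. The median was 0.795 RPM from 0.75 to 1 times, 0.938 and 1.07 RPM in the 2 classes between 1 and 1.5 times, 1.22 RPM from 1.5 to 2 times and 1.71 RPM from 2 to 3 times. The matched values fell between 0.698 and 0.956 RPM in all classes. The 44 sites at 3 times or more broke the order with 1.44 RPM (0.663 to 2.71 RPM).

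**Figure D2:**
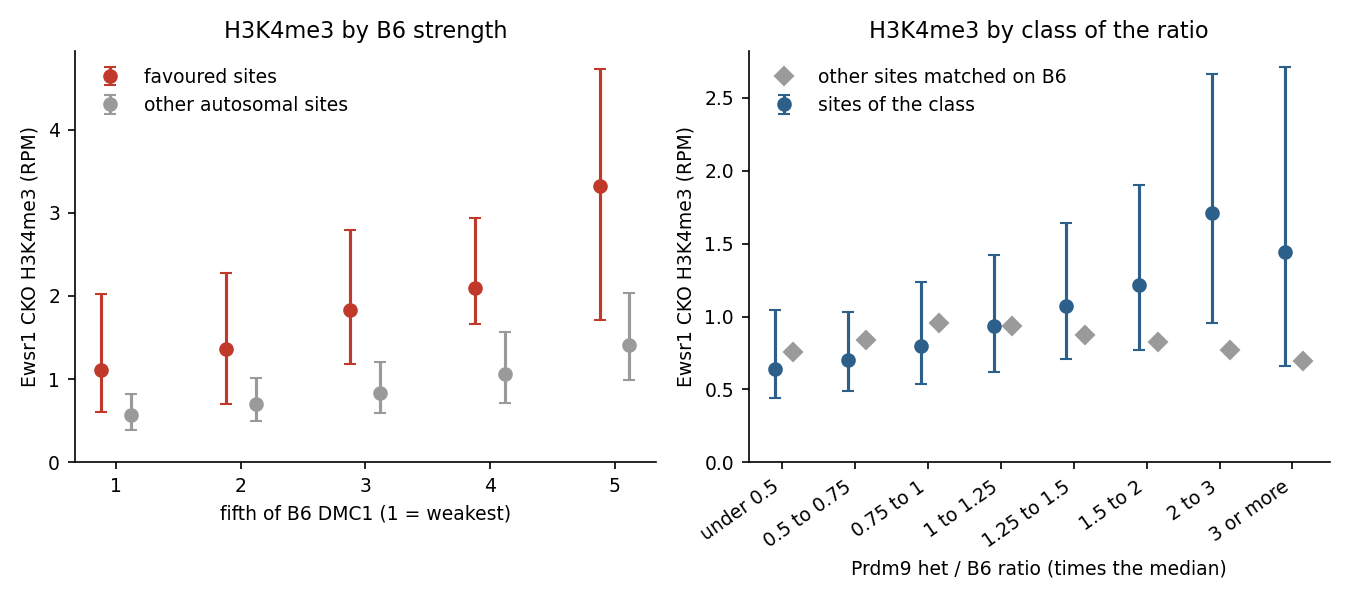
H3K4me3 in Ewsr1 CKO (RPM, median and interquartile range over sites) for favoured and other autosomal sites by quintile of B6 DMC1 (left), and by class of the Prdm9 het over B6 ratio beside other sites matched on B6 (right, diamonds). Favoured medians run from 1.11 to 3.32 RPM, above the 0.564 to 1.41 RPM of the other sites in each quintile, and class medians run from 0.639 RPM under 0.5 times to 1.71 RPM at 2 to 3 times.

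The favoured sites with the most H3K4me3 lay both inside and outside annotated genes. The highest, 7.44 RPM, was at chr9:44134613-44136744 in Mcam, which encodes a cell adhesion molecule, and had a DMC1 value of 16.8 RPM in Prdm9 het against 20.7 RPM in B6. The next were in the predicted gene Gm36134 at chr4:120241719-120244602 (7.07 RPM), in Sptbn5, a spectrin gene, and Gm52559 at chr2:120065295-120067988 (7.04 RPM), and outside genes at chr5:134005310-134007768 (5.85 RPM). The Mcam site and the chromosome 5 site overlapped no listed H3K4me3 interval, and the other two did. Few favoured sites contained a promoter window, but the share was above that of the matched sites: 9 of 255 (3.53%, Wilson interval 1.87 to 6.57%), against 1.26%. It was 2.35% from 1.5 to 2 times the median ratio, 2.84% (6 sites) from 2 to 3 times and 6.82% (3 sites) at 3 times or more. In the classes below 1.5 times it was at most 1.52%. Without all sites holding a promoter window, the favoured sites exceeded the matched ones in H3K4me3 by a log2 ratio of medians of 1.15, as with them. Favoured sites lay in an annotated gene in 61.2% of cases and matched sites in 61.6%, and in a protein-coding gene in 51.0% and 52.9%.

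An interval of the authors' list of H3K4me3 sites common to B6 and Ewsr1 CKO overlapped 182 of the 255 favoured sites by at least 1 bp (71.4%, Wilson interval 65.5 to 76.6%). Over all autosomal sites the share was 55.9%, and over the matched sites 47.9%, a difference of 23.5 percentage points that was 4.62 points where sites were matched on Prdm9 het DMC1 in place of B6. By quintile of B6 strength the share was higher at favoured than at other sites in the lower 4 (55.8% against 31.8% in the weakest), and lower in the strongest, at 72.7% of 11 favoured sites against 81.6% of the others. By class of the ratio, the share was 38.0% under 0.5 times the median, 60.9% in the class just above the median, 74.9% from 2 to 3 times and 54.5% (24 of 44, 40.1 to 68.3%) at 3 times or more. The last interval includes the 42.9% of its matched sites. The 182 overlapping sites had a median H3K4me3 of 1.74 RPM and a median B6 DMC1 of 39.9 RPM. The 73 others had 0.700 RPM and 23.1 RPM, but their upper quartile of H3K4me3, 2.98 RPM, was above the 2.62 RPM of the overlapping sites.

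At these H3K4me3 intervals H3K36me3 did not show an excess of the same size. What placed either mark at a given interval cannot be told from these values. The 182 listed H3K4me3 intervals that touched a favoured site had a median H3K4me3 of 1.57 RPM and H3K36me3 of 1.55 RPM in Ewsr1 CKO. The 4712 intervals that touched only other autosomal DMC1 sites had 1.03 RPM and 1.45 RPM. Weighted to the same spread over deciles of H3K4me3, the other intervals had a median H3K36me3 of 2.02 RPM, so the favoured ones held 0.765 times as much at the same H3K4me3. The median H3K36me3 of the others in their H3K4me3 decile was exceeded by 54 of 182, against 49.2% of all 4894 intervals compared. The ratio of H3K36me3 to H3K4me3 had a median of 1.02 (interquartile range 0.741 to 1.33) at favoured and 1.34 (1.02 to 1.84) at other intervals, ranges that overlap. Favoured intervals were narrower than others of like H3K4me3 (1915.5 against 2052 bp), and per kb the H3K36me3 medians were 0.799 and 0.966 RPM.

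DMC1 in Ewsr1 CKO was also somewhat higher at favoured than at matched sites. Its median was 48.4 RPM (interquartile range 30.3 to 71.6 RPM) against 40.8 RPM (24.6 to 69.5 RPM), ranges that largely overlap, and 179 of 255 favoured sites were above the median of the other sites of their stratum, against 50.1% of all autosomal sites. In the strongest quintile of B6 the order was the other way, with medians of 174 RPM at 11 favoured and 189 RPM at the other sites, which were not matched within the quintile. The Ewsr1 CKO over B6 ratio had a median of 1.37 at favoured sites, 1.17 at matched sites and 1.12 over all autosomal sites. It was at least 1.5 times its autosomal median at 82 favoured sites (32.2%, Wilson interval 26.7 to 38.1%), against 12.1% of all autosomal sites and 13.9% of the matched sites. It was lower by the same factor at 5 favoured sites (1.96%), against 6.78% of all. This ratio shares its B6 column with the rule, so a low B6 value raises both, and these counts are a description. Where sites were matched on Prdm9 het DMC1 in place of B6, the order of Ewsr1 CKO DMC1 turned round: the log2 ratio of medians was −0.87, against 0.25 with matching on B6. By the rule itself, favoured sites have less B6 DMC1 than other sites of the same Prdm9 het value, so the direction of this contrast rests on the column used for matching. With that matching the log2 ratio for H3K4me3 was 0.66, against 1.15.

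The difference in the Ewsr1 CKO over B6 ratio was widest at weak sites. In the weakest quintile of B6 the median ratio was 1.76 at favoured and 1.29 at other sites, in the middle quintile 1.245 and 1.14, in quintile 4 1.08 and 1.05, and in the strongest 1.02 and 0.957. The highest ratio was at chr16:62191351-62193643, with 62.6 RPM in Ewsr1 CKO over 17.9 RPM in B6 (Prdm9 het 12.1 RPM). The next were chr15:46353314-46355374 (89.1 over 26.6 RPM) and chr6:80945741-80947214 (28.7 over 8.87 RPM). The lowest ratio was in Cars, a tRNA synthetase gene, at chr7:143566788-143569357, where DMC1 stood at 22.8 RPM in Ewsr1 CKO over 60.8 RPM in B6 (Prdm9 het 23.0 RPM) and H3K4me3 was 4.19 RPM. A site in Fgf14, a fibroblast growth factor family gene, at chr14:124595107-124597695 (34.1 over 61.7 RPM) and one at chr5:117781005-117783399 (29.0 over 47.7 RPM) followed. These 3 sites had more H3K4me3 (2.40 to 4.19 RPM) than the 3 with the highest ratio (0.261 to 1.34 RPM). They also had more B6 DMC1 (47.7 to 61.7 against 8.87 to 26.6 RPM), so the contrast is not one at equal B6 strength.

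DMC1 per unit of H3K4me3, both read in Ewsr1 CKO, was lower at favoured sites. The quotient had a median of 31.9 (interquartile range 17.8 to 56.4) at favoured and 53.3 (31.6 to 89.7) at matched sites, and 66 of 255 favoured sites exceeded the median of the others in their stratum, against 49.2% of all autosomal sites. A choice on the ratio to B6 does not use this quotient, but the matching does fix the level of B6 DMC1, with which Ewsr1 CKO DMC1 goes along.

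**Figure D3:**
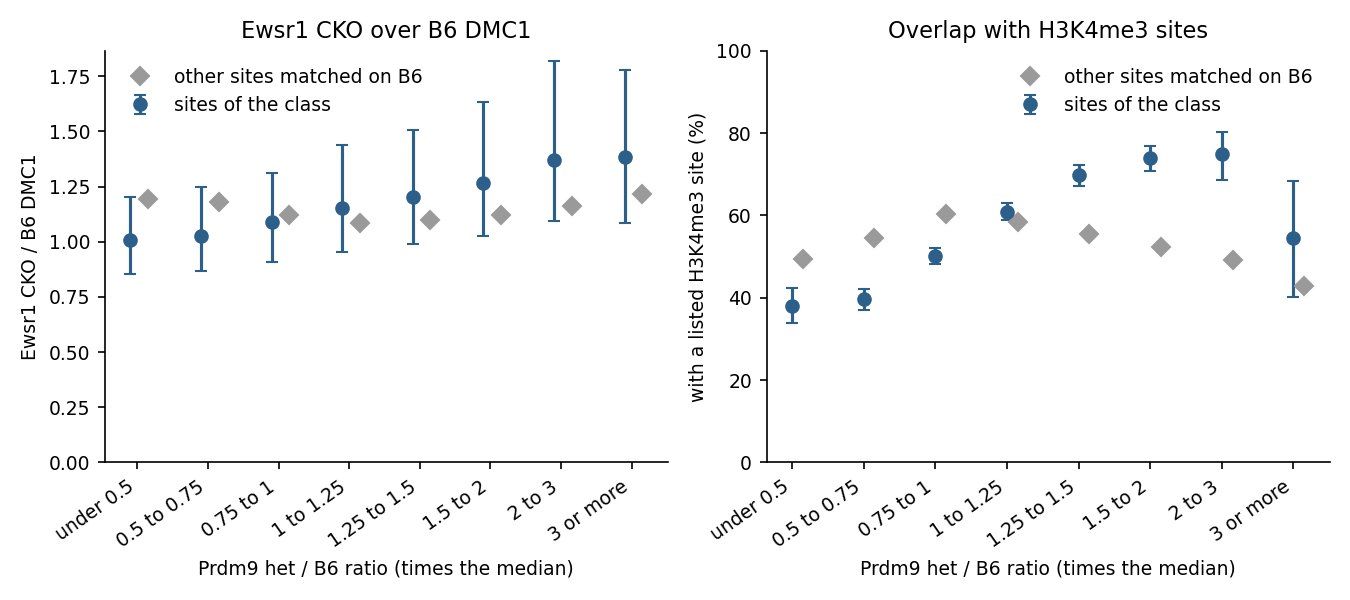
The left plot shows the Ewsr1 CKO over B6 DMC1 ratio by class of the Prdm9 het over B6 ratio (median and interquartile range over sites), and the right plot the share of sites with a listed H3K4me3 interval (percent with Wilson 95% interval). Diamonds are other sites matched on B6, and the class from 2 to 3 times stands at 1.37 and 74.9%, above its matched values of 1.16 and 49.1%.

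Favoured sites occurred on all 19 autosomes but unevenly. Chromosome 9 held 33 of them among 462 listed sites (7.14%, Wilson interval 5.13 to 9.86%), chromosome 15 held 27 of 400 (6.75%, 4.68 to 9.64%), chromosome 17 held 16 of 251 (6.37%, 3.96 to 10.1%) and chromosome 5 held 23 of 529 (4.35%, 2.91 to 6.44%). These 4 chromosomes held 38.8% of the favoured sites and 18.8% of all autosomal sites. From the B6 strength of their sites alone each autosome would hold 2.72 to 3.11%, and on these 4 the interval lay above that value. On chromosomes 1, 2 and 6 it lay below, with 1.68%, 1.10% and 1.47%. The margin was narrow on chromosome 5 (lower end 2.91% against 2.82%) and chromosome 1 (upper end 2.91% against 2.94%). These intervals treat sites as independent, though some favoured sites were grouped, as described below. The 15 autosomes other than chromosomes 5, 9, 15 and 17 together had 2.20%. Along the chromosomes the share was lowest at both ends of the listed span, against 2.92% over all autosomal sites. It was 2.0% (16 of 802) in the first and 2.09% (17 of 815) in the last of 10 equal parts. In the 8 parts between it was from 2.45% to 3.65%. These shares rest on few favoured sites, and no interval was computed for them. Within 10 Mb of the first listed site lay 14 favoured sites (5.49%) and 6.92% of matched sites, and within 10 Mb of the last lay 13 (5.10%) and 7.83%.

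**Figure D4:**
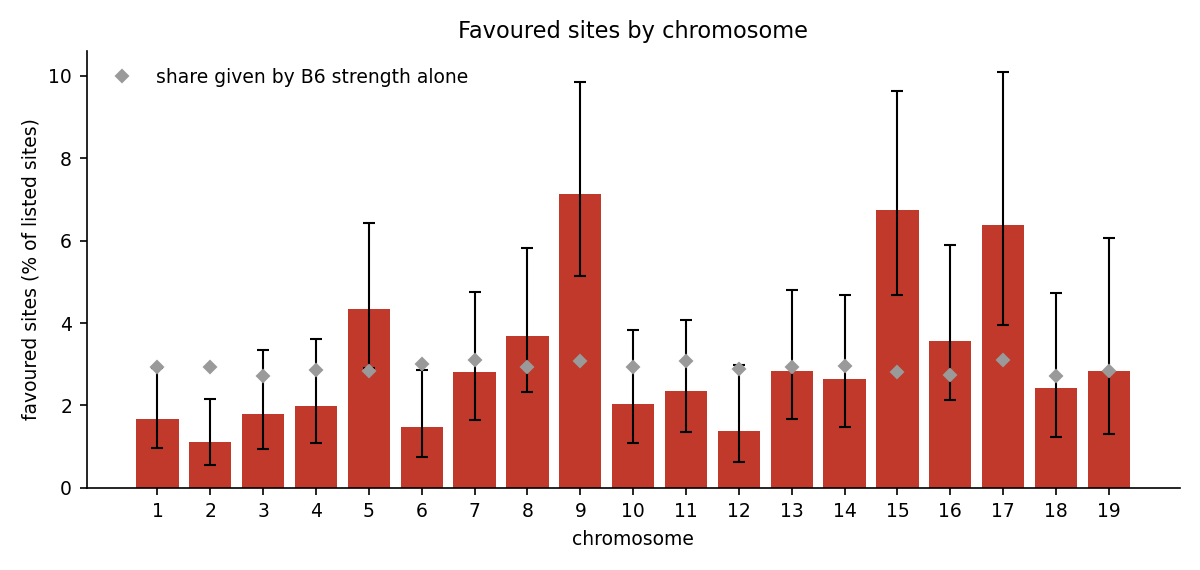
Share of the listed DMC1 sites of each autosome that were favoured (percent, bars; error bars are Wilson 95% intervals over sites), with the share that the B6 strength of its sites would give (diamonds). Chromosomes 9, 15, 17 and 5 stand above their diamonds with 7.14, 6.75, 6.37 and 4.35%.

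Some of the favoured sites were grouped within a few Mb. Another favoured site lay within 1 Mb of 90 of the 255 (35.3%, Wilson interval 29.7 to 41.3%) and of 18.9% of the matched sites, while 82 had none within 5 Mb. Of 496 windows of 5 Mb with a listed site, 165 held a favoured site and 10 held 4 or more. On chromosome 15 between 75 and 80 Mb 8 of 25 sites were favoured, and on chromosome 5 between 125 and 130 Mb 6 of 17. In these windows the median ratio of the sites that were not favoured was 1.28 and 1.56 times the autosomal median, and all but 1 of the favoured ones overlapped a listed H3K4me3 interval. The 8 sites on chromosome 15 had H3K4me3 values from 2.30 to 4.47 RPM, all above the autosomal upper quartile, and B6 values from 10.7 to 53.0 RPM. Among them were sites in Tonsl, a replication repair gene (19.1 RPM in Prdm9 het and 38.1 RPM in B6), and in Kcnj4, a potassium channel gene (21.8 and 53.0 RPM).

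A window on chromosome 8 between 30 and 35 Mb had a different make-up. Of its 27 sites 5 were favoured, while 14 had a ratio at or below 0.5 times the median, as did 5.57% of all autosomal sites, and 9 were under 0.1 times. The favoured sites there reached 2.25 to 3.70 times the median with H3K4me3 values from 0.422 to 1.13 RPM. One of them lay in Nrg1, a growth factor gene (7.02 RPM in Prdm9 het and 12.0 RPM in B6). The sites that were not favoured had a median of 0.147 times. This window was singled out after its values were seen.

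Beyond single windows, the median ratio was higher at the neighbours of favoured sites. The nearest site that was not itself favoured had a median ratio of 1.19 times the autosomal median (interquartile range 0.882 to 1.45) beside favoured sites and 0.980 (0.769 to 1.22) beside the other sites. It was above the autosomal median at 166 of 255 favoured sites (65.1%) and at 47.6% of the others. On the 4 chromosomes rich in favoured sites these medians were 1.34 and 1.05, and on the other 15 autosomes 1.07 and 0.963. By distance from the nearest favoured site, the median ratio of the other sites was 1.27 under 50 kb, 1.12 from 50 to 100 kb, 1.13 from 100 to 250 kb, between 0.983 and 1.04 from 250 to 5000 kb and 0.959 beyond. Their H3K4me3 ran the same way, from 1.09 RPM under 50 kb to 0.803 RPM at 5000 kb or more, while the Ewsr1 CKO over B6 ratio was between 0.958 and 1.08 times its own median in all distance classes. Sites at or below 0.5 times the median made up 7.41% (6 of 81) of the other sites under 50 kb and 8.79% (8 of 91) from 50 to 100 kb. Their share was 6.37% from 100 to 250 kb, 8.23% from 250 to 500 kb and 7.39% from 500 to 1000 kb. It was 5.23% from 1000 to 2000 kb, 6.08% from 2000 to 5000 kb and 4.92% beyond, against 5.57% of all autosomal sites. The share thus did not fall steadily with distance, and the nearest classes rest on few sites. Neighbouring sites share chromatin and annotation and are not independent. The spread within each distance class was wider than the difference between classes.

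**Figure D5:**
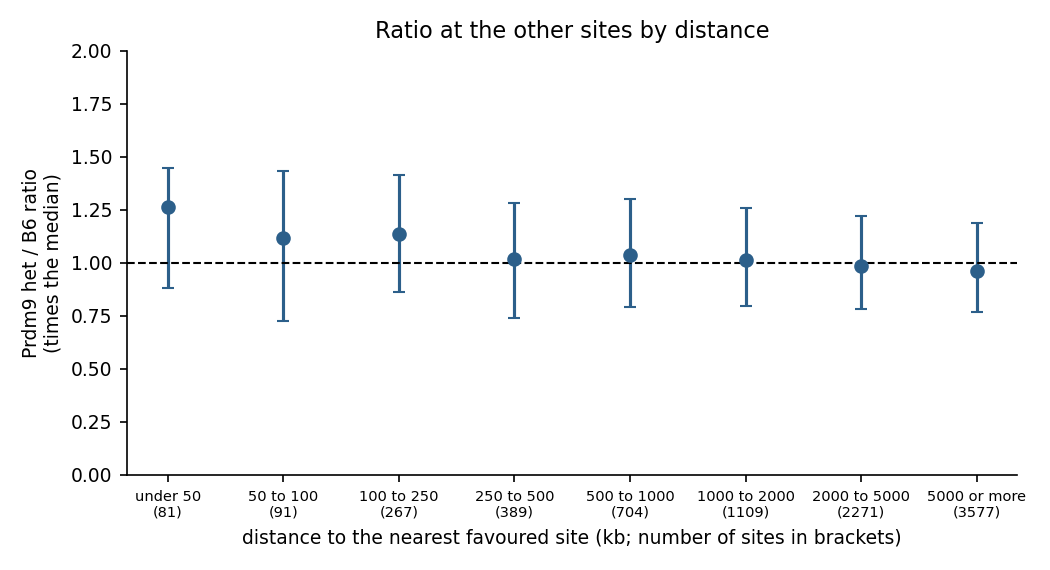
Prdm9 het over B6 ratio (times the autosomal median) at autosomal sites that were not favoured, by distance to the nearest favoured site in kb (points are medians, bars interquartile ranges, brackets the number of sites). The median goes, not steadily, from 1.27 under 50 kb to 0.959 at 5000 kb or more, and all interquartile ranges overlap.

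The most favoured sites differed from the rest in their surroundings. Around the 211 sites from 2 to 3 times, the median ratio of the sites within 1 Mb that were not favoured was 1.11 (interquartile range 0.977 to 1.28) and was above 1 in 72.2% of cases. Around the 44 sites at 3 times or more it was 0.941 (0.700 to 1.24) and above 1 in 40.9%. At least 2 sites with a ratio at or below 0.5 times the median lay within 1 Mb of 25% of those 44 sites (11 sites, Wilson interval 14.6 to 39.4%), of 7.11% of the 211 (4.36 to 11.4%) and of 9.40% of the other autosomal sites. These intervals treat sites as independent. The site at chr3:37559889-37562231, the ninth by ratio and named after its values were seen, had 6 such sites among the 11 within 1 Mb. The 26 favoured sites with at least 2 depleted sites nearby had a median H3K4me3 of 1.10 RPM (0.801 to 1.58 RPM), close to the 1.00 RPM of the 798 other sites in such surroundings. The remaining 229 had 1.73 RPM (0.948 to 2.67 RPM), against 0.855 RPM for the other sites in theirs. The difference in H3K4me3 was thus larger away from depleted sites. These medians were not matched on B6, and the split was made after the values were seen.

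Favoured sites from 2 to 3 times the median ratio also lay in regions with more genes. Within 1 Mb to either side there was a median of 17 protein-coding genes (interquartile range 9 to 31) around favoured sites and 13 (7 to 23) around matched sites. The median was 18 (9 to 32.5) around the 211 sites from 2 to 3 times and 12.5 (6 to 20.75) around the 44 sites at 3 times or more. The share of favoured sites was 4.57% in the quintile of sites with most genes nearby (27 to 118) and 1.60% in the second lowest quintile (6 to 10), but 2.52% in the lowest, so it did not follow gene number throughout. The distance to the nearest listed site was 94.9 kb at favoured and 84.8 kb at matched sites.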

How the data were processed

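ChIP-seq of DMC1, H3K4me3 and H3K36me3 in mouse spermatocytes was used. Per the submitters' processing notes, Trimmomatic 0.32, BWA 0.5.10 and the mm10 build were used; peak calling and the merging of replicates are not given in the sources used here. The deposited values are RPM, scaled by the authors, with 1 column per group. The 6 matched columns were used, and 4 columns that matched no sample of the series were not. Repeated lines of the H3K4me3 table (220 of 5787) were averaged.

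From these, site ratios, medians, weighted medians over 20 strata of B6 and Wilson 95% intervals were computed with Python 3.11.15, numpy 2.4.6, pandas 2.3.3, scipy 1.17.1 and matplotlib 3.10.9, without a pseudocount and without p-values. The functions were tested on simulated data. Genes and promoters came from RefSeq (GRCm38.p6, the assembly of mm10). By rule, named sites are the favoured ones with the highest ratio, B6 or H3K4me3 value, the highest and lowest Ewsr1 CKO over B6 ratio, and those beside the threshold; 1 of them is not reported here. The sites in Tonsl, Kcnj4 and Nrg1, the chromosome 3 site and the promoter sites were named outside this rule, after their values were seen. The members, lists and measures were chosen with earlier results of these data known. The criterion of a whole promoter window (after a look at any overlap), the printed windows, the split by depleted neighbours, gene number, the 4 richest chromosomes and the chromosome 8 window were chosen after values were seen. The columns used name no single sample, so a model over samples was not run, and site centre sequences were not analysed here.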

Additional observations from a re-analysis of the deposited data

How the results depend on the processing

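Of 77 recomputed values 59 stayed within the 95% interval of the reported value over favoured sites (order statistics for a median, Wilson for a share, the matched value held fixed; within 1.5 times for a count); scaling whole columns, which cannot change the choice of sites, is not among them. The number of favoured sites was 1063 at 1.5 times the median ratio, 44 at 3 times, 149 without sites under the lower quartile of B6 and 411 when chosen on Prdm9 het over Ewsr1 CKO. These 411 included 128 (50.2%) of the 255, which are 31.1% of the 411. The log2 ratio of H3K4me3 medians (1.15) was 0.71 at 1.5 times, 1.34 when chosen on Ewsr1 CKO and 0.66 when matched on Prdm9 het DMC1. The overlap with H3K4me3 intervals (71.4%) was 54.5% at 3 times, 77.9% without these weak sites and 84.7% when chosen on Ewsr1 CKO. Its excess over matched sites (23.5 percentage points) was 11.6 at 3 times, 30.4 when chosen on Ewsr1 CKO and 4.62 when matched on Prdm9 het. With that matching the log2 ratio for Ewsr1 CKO over B6 (0.23) was 0.36 and that for Ewsr1 CKO DMC1 (0.25) was −0.87. The median ratio at the nearest other site (1.19) was 1.02 at 1.5 times, 1.06 at 3 times and 1.07 without chromosomes 5, 9, 15 and 17, an alternative chosen after seeing the data, as was leaving out promoter sites. Other strata, overlap rules, 1 RPM added before the ratio and the ratio within a B6 stratum left each value within its interval. The cause of these shifts was not tested. No paired analysis was possible because each group has a single value per site; leaving out a replicate was likewise not run. The unknown depth of the Prdm9 het column limits the ratio at weak sites.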
